A study of Mus musculus with 6 samples.

Results

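The TNF superfamily was described here in splenic T cells of mice that carry the N159S variant of Aiolos. Aiolos, encoded by Ikzf3, is a zinc finger transcription factor of the Ikaros family that acts in lymphocytes. The family was taken as every gene whose symbol starts with Tnfsf or Tnfrsf, together with Tnf, Lta, Ltb, Ltbr, Fas, Fasl, Cd27, Cd40, Cd40lg, Cd70 and Ngfr, and a member was described where it had at least 10 reads in at least 2 libraries. Of 25239 genes in the files, 43 carry such a symbol, and 30 of them met the read rule. The same 30 were among the 12117 genes that passed the filter of the test on low counts.

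The cells were TCRb+CD4+CD44-CD127+ T cells, the phenotype chosen to stand for naive T cells, and were purified by FACS from the spleens of C57BL/6 mice. In all, 3 genotypes were compared, with 2 libraries each: Ikzf3 +/+, the heterozygous Ikzf3 +/N159S and the homozygous Ikzf3 N159S/N159S. They are also called controls, heterozygotes and homozygotes. No treatment other than the sort was given to any group, and the age of the mice was not given in the sources used here. The variant was carried in the germline, so every cell of an animal had it, and the 2 libraries of a genotype were not tied by their labels to litters or days.

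Ligands of the family are mostly trimeric proteins of the cell surface, some of which are shed, and their receptors fall into those with a cytoplasmic death domain, those that bind TRAF adaptors directly, and decoys that bind ligand without a full signalling tail. In T cells the family supplies costimulation (CD27, OX40, 4-1BB, GITR), help to B cells (CD40 ligand), organisation of lymphoid tissue (the lymphotoxins) and both inflammatory and death signals (TNF, Fas ligand). Resting naive T cells are known to carry CD27 and lymphotoxin beta, whereas many of the other members are induced when a T cell is activated.

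The 6 libraries held 11696461 to 17317260 reads on genes. The sort was reflected in the counts, since the 12 markers of naive CD4 T cells summed to between 102497 and 129561 normalised counts in every library (a normalised count is the read count scaled to the mean effective library size). Transcripts of other cells were present at lower levels and differed between genotypes. The 15 B cell markers counted here summed to 3237 and 5016 in the controls, to 8425 and 13741 in the heterozygotes and to 3231 and 2152 in the homozygotes. Adult globin genes (Hba-a1, Hba-a2, Hbb-bs, Hbb-bt) were at 0 in all libraries. Both Ikzf3 +/N159S libraries had many reads of Xist (12382 and 12801) against 9 to 34 in the others, so that in any comparison with the heterozygotes the genotype and sex-linked transcripts cannot be told apart. Within each genotype, 1 library had more genes with a read than the other (16873 to 18147 against 14803 to 15888). Ikzf3 itself was counted at 2351 and 2312 in the controls, 2511 and 2278 in the heterozygotes and 2950.2 and 3032 in the homozygotes, and these counts do not separate the alleles. In bulk libraries such as these, a lower value from fewer cells of a type and one from less RNA per cell cannot be told apart.

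The promoter sequences of the TNF and lymphotoxin cluster are shown first because the change with the lowest FDR (false discovery rate) in the family fell on the middle gene of that cluster. Ltb, Tnf and Lta lie next to each other on chromosome 17 (GRCm38), with 3.06 kb between Ltb and Tnf and 1.16 kb between Tnf and Lta. Tnfrsf1a, the gene of the first TNF receptor, lies on chromosome 6 and is shown with them because it moved the other way. The letters are those of RefSeq (GRCm38.p6), read 5′ to 3′ on the strand of the gene. They come from the 250 bases before its start in the promoter set used, outside every annotated exon. The GENCODE M21 model of Tnfrsf1a, used below for levels per length, starts upstream of its window, at chr6:125349362. Capitals mark GGGAA, the core that Ikaros family zinc fingers bind, or TTCCC where it lies on the other strand.
Tnf, minus strand, chr17:35202008-35202257: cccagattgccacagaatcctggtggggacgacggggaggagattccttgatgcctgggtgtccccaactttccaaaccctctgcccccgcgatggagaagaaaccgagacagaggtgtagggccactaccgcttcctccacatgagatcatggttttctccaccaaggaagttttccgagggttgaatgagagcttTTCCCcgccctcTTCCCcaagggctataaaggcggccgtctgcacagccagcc
Lta, minus strand, chr17:35205352-35205601: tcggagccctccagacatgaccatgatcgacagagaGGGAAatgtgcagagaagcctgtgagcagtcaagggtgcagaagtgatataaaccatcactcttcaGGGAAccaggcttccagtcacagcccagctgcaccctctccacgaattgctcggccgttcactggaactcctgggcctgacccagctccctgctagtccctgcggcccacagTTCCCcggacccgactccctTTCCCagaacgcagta
Ltb, plus strand, chr17:35194257-35194438: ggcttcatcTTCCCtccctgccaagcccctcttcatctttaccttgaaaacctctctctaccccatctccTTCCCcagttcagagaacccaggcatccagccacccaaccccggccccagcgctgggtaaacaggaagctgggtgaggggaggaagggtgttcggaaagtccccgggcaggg
Tnfrsf1a, plus strand, chr6:125349509-125349722: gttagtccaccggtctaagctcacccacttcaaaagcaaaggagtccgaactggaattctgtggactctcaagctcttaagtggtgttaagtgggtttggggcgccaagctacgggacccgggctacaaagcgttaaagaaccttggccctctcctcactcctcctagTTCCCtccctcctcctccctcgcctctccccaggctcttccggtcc

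The Tnf window held 2 such cores, both in its last stretch before the start, the Lta window 4, the Ltb window 2 and the Tnfrsf1a window 1. The longer form TGGGAA, which contains GGGAA, was in the Lta window once and in none of the other 3. Over both strands, GGGAA was found in 56.2% of 32851 promoter windows of all genes and in 26 of 37 windows (70.3%) of the family. These 37 windows belong to 33 family genes, and the other family genes had no window in the promoter set used. TGGGAA was found in 21.6% of all windows and in 7 of the 37 (18.9%). A match describes letters only, and binding of Aiolos was not measured in these libraries.

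The level of the family in Ikzf3 +/+ T cells was headed by the lymphotoxin and costimulatory genes. Per kilobase of exon and per 1000000 reads, Ltb, which encodes the membrane anchor of the lymphotoxin heterotrimer, stood at 419 ± 12.5 (SD, n = 2). Cd27, a costimulatory receptor of naive T cells, followed at 127 ± 2.66, and Cd40lg, the ligand through which T cells help B cells, at 113 ± 15.6. The 2 libraries of Cd40lg (102 and 124) came close to the range of Cd27 (125 and 129), so the order of this pair is within their spread.

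The next genes on this scale were Tnfrsf25 at 34.7 ± 0.447, Tnfrsf14 at 30.1 ± 1.76 and Tnfrsf18 at 26.9 ± 3.15, receptors known as DR3, HVEM and GITR. Fas, Tnfrsf1a, Tnfrsf26 and Tnf then lay between 19.2 and 21.9, and these 4 were within a few units of each other, with Fas, Tnfrsf1a and Tnfrsf26 overlapping or adjoining in their libraries. The lowest members were Tnfrsf19 at 0.301, Tnfrsf21 at 0.141 and Ltbr at 0.0682. The levels thus spanned several orders of magnitude, and the lowest of them rest on few reads.

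**Figure D1:**
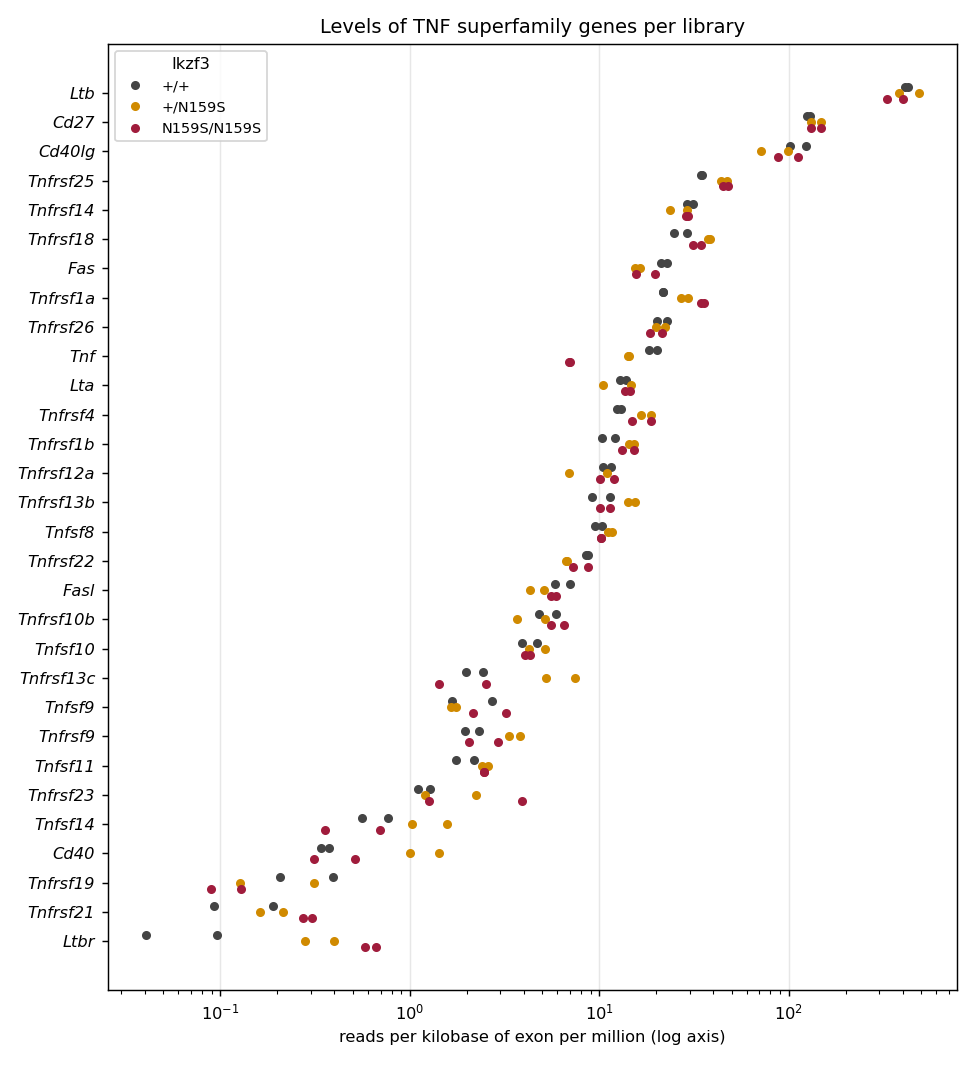
Level of the 30 family genes in each library, as reads per kilobase of exon and 1000000 reads on a log axis, ordered by the Ikzf3 +/+ mean; each dot is 1 library and the colours are the genotypes. Ltb, Cd27 and Cd40lg sit apart at the top in all 3 genotypes, and Tnf and Ltbr are the genes whose genotypes separate most visibly.

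In Ikzf3 N159S/N159S T cells, 4 of the 30 genes differed from Ikzf3 +/+ at an FDR under 0.05 in the quasi-likelihood test of edgeR, adjusted over all genes tested. Of these, 3 rose (Tnfrsf1a, Tnfrsf25 and Ltbr), which is 10% of the family beside 3.10% of all genes tested, and 1 fell (Tnf), which is 3.33% beside 2.10%. These shares rest on 3 genes and 1 gene, and Ltbr entered the family here only through the reads of its mutant libraries. Without it 2 of 29 genes rose (6.90%). The median log2 fold change of the 30 was 0.08 beside 0.00018 for all genes tested, with 9 of the 30 (30%) at an unadjusted p below 0.05 beside 18.4% of all genes. Without Ltbr the median was 0.07, and 8 of 29 (27.6%) had an unadjusted p below 0.05. In Ikzf3 +/N159S T cells 1 gene rose (Tnfrsf13c, 3.33% of the family beside 1.16% of all genes) and 0 fell beside 0.586%. Between the 2 mutant genotypes, 0 were higher in the homozygotes beside 0.553% of all genes and 2 were lower (Tnf and Tnfrsf13c, 6.67% beside 0.933%). In edgeR the family had 10 genes higher (33.3% beside 9.39% of all genes) and 5 lower (16.7% beside 6.92%) with an unadjusted p under 0.05 in Ikzf3 +/N159S against Ikzf3 +/+. Without Ltbr 9 of 29 (31.0%) were higher and 5 (17.2%) lower. In the homozygotes against the heterozygotes the family had 2 higher (6.67% beside 5.50%) and 6 lower (20% beside 6.21%). At an adjusted p under 0.05, DESeq2 called 2 higher (Tnfrsf13c and Tnfrsf18) and 0 lower in Ikzf3 +/N159S against Ikzf3 +/+. In the homozygotes against the heterozygotes it called 0 higher and 2 lower (Tnf and Tnfrsf13c). These DESeq2 counts are given without the share of all genes that DESeq2 called, so they are not set against a background. The comparisons against Ikzf3 +/+ share its 2 libraries, and those with Ikzf3 +/N159S share the 2 heterozygous ones.

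**Figure D2:**
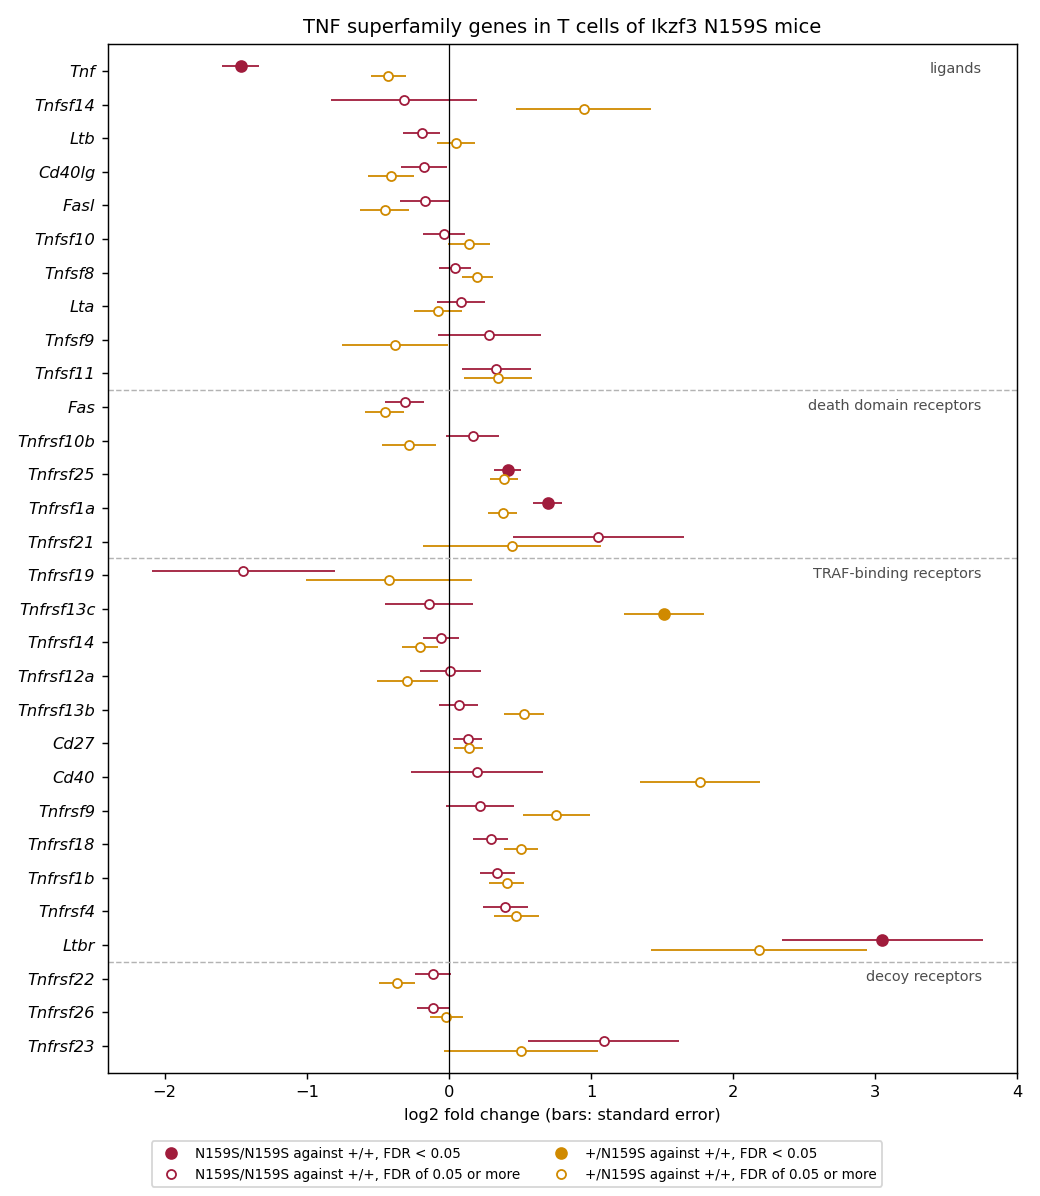
Log2 fold change of each of the 30 family genes in Ikzf3 N159S/N159S (red) and Ikzf3 +/N159S (orange) against Ikzf3 +/+, grouped by role, with bars of 1 standard error; filled dots passed an FDR of 0.05 and both comparisons use the same 2 control libraries. Tnf stands alone to the left among the ligands, and the called receptors Tnfrsf1a, Tnfrsf25 and Ltbr lie to the right.

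Among the ligands, Tnf was the one that changed, and it fell in homozygous cells. Tnf encodes the inflammatory cytokine that gives the family its name. Its normalised count was 492 and 450.2 in the Ikzf3 +/+ libraries, 347 and 354 in the Ikzf3 +/N159S libraries and 169.9 and 171 in the Ikzf3 N159S/N159S libraries. The 3 genotypes did not overlap, and the heterozygous libraries lay between the other 2 groups. Tnf was the 1 family gene of 30 (3.33%) with such falling steps, beside 3.67% of all genes tested. In Ikzf3 N159S/N159S the log2 fold change against Ikzf3 +/+ was -1.47 ± 0.13 (SE; FDR = 0.000118 in edgeR), which left 36.2% of the Ikzf3 +/+ level. Against Ikzf3 +/N159S it was -1.04 ± 0.13 (FDR = 0.00336 in edgeR), or 48.7%. The step from Ikzf3 +/+ to Ikzf3 +/N159S was -0.43 ± 0.12 and did not pass (FDR = 0.121 in edgeR). Both homozygous calls were kept with each library left out in turn and under each of the 7 other settings tried.

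Neither neighbour of Tnf passed the test in any comparison. Lta, which encodes the soluble lymphotoxin alpha, was counted at 267 and 286 in the controls, 306 and 218 in the heterozygotes and 302 and 284 in the homozygotes. Its groups overlapped, and the homozygous log2 fold change was 0.08 ± 0.17. Ltb was counted at 7233 and 7545, at 8572 and 6735 and at 7091 and 5851, in the same order of genotypes, and its homozygous log2 fold change was -0.19 ± 0.13. The ratio of Tnf to Lta reads was 1.84 and 1.57 in the controls, 1.14 and 1.62 in the heterozygotes and 0.562 and 0.602 in the homozygotes. In control cells the cluster thus gave more reads of Tnf than of Lta, and in homozygous cells fewer.

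**Figure D3:**
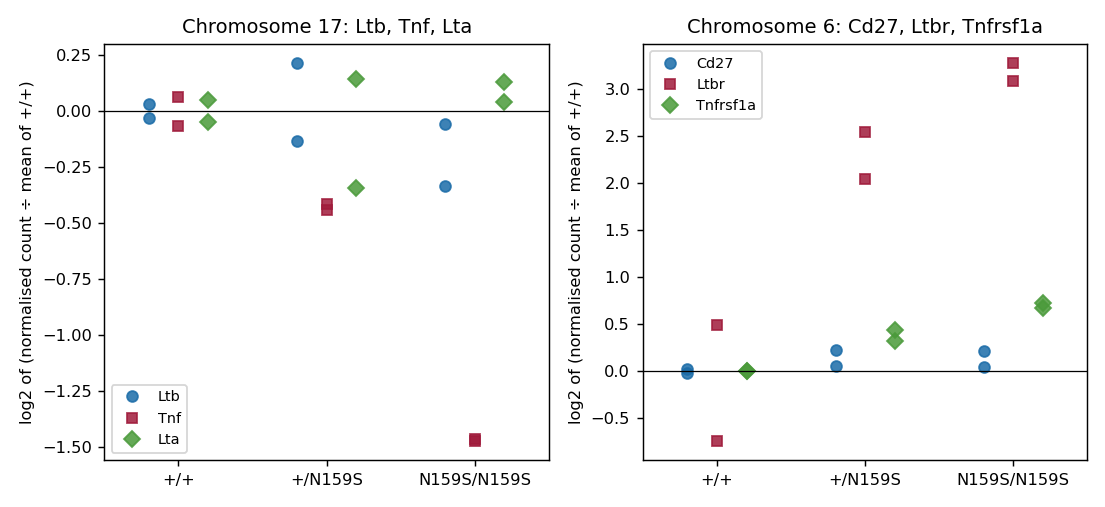
Log2 of the normalised count over the Ikzf3 +/+ mean for each library (1 symbol per library), for the 3 family genes on chromosome 17 (left) and on chromosome 6 (right), by genotype. Tnf drops to -1.47 and -1.46 in the homozygous libraries while Lta and Ltb stay within 0.35 of the control mean, and on chromosome 6 Tnfrsf1a and Ltbr are above the control mean in all mutant libraries while Cd27 is within 0.23 of it.

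Markers of other cells were read beside the fall of Tnf. The 11 markers of CD8 T cells and NK cells, both of which can express Tnf, summed to 1045 and 1142 normalised counts in the controls, 951 and 888 in the heterozygotes and 725 and 647 in the homozygotes. Of the 7 with enough reads to be tested, 1 fell in homozygous cells (Cd8b1, from 301 and 197 to 47.0 and 30.7) and 0 rose in edgeR, beside 2.10% and 3.10% of all genes. Their log2 fold changes were below 0 in 6 and above 0 in 1, Gzma (2.66 ± 0.71; FDR = 0.0555 in edgeR). The 13 effector and memory markers summed to 2093 and 2088, to 2432 and 2625 and to 1813 and 1987. Id2 was the largest part of these sums, at 1063 and 1119 in the controls and 1318 and 1324 in the homozygotes. Of the 10 with enough reads to be tested, 1 was lower in the homozygotes than in the controls (Il2rb, -1.52 ± 0.17; FDR = 0.000396 in edgeR). In that comparison 0 were higher, beside 2.10% lower and 3.10% higher of all genes. Their log2 fold changes were below 0 in 7 and above 0 in 3, with a median of -0.76. The myeloid list went the other way, from 825 and 878 in Ikzf3 +/+ to 1027 and 1271 in Ikzf3 N159S/N159S. The part of these cells in the Tnf counts was not tested.

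None of the other 9 ligands passed in any comparison, with edgeR or DESeq2. At an unadjusted p under 0.05 in edgeR, Fasl and Cd40lg were lower in the heterozygotes than in the controls, and Tnfsf14 lower in the homozygotes than in the heterozygotes. Cd40lg, on chromosome X, was counted at 1905 and 2317 in the controls, 1844 and 1339 in the heterozygotes and 2099 and 1636 in the homozygotes. Its heterozygous libraries were both below the controls, with a log2 fold change of -0.41 ± 0.16 (FDR = 0.249 in edgeR). Fasl, the death ligand of cytotoxic cells, had a similar heterozygous log2 fold change of -0.45 ± 0.18 (FDR = 0.234 in edgeR).

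Tnfsf8 (the CD30 ligand) and Tnfsf10 (TRAIL) were counted at intermediate level, between 542 and 668 and between 309 and 408 over the 6 libraries, with homozygous log2 fold changes of 0.04 and -0.03. Tnfsf11, which encodes RANKL, lay between 58.4 and 86.6 normalised counts. Tnfsf14 (LIGHT) and Tnfsf9 (the 4-1BB ligand) were low, at 9.87 to 43.4 and 31.8 to 61.8. Ligands mainly known from cells that present antigen were close to absent: Cd70 had at most 1 read in any library, Tnfsf4 (the OX40 ligand) at most 3 and Tnfsf18 (the GITR ligand) at most 4.

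The receptors with a death domain included the clearest increase of the family. Tnfrsf1a encodes TNFR1, the receptor through which soluble TNF signals in most tissues. It was counted at 698 and 697 in the controls, 944 and 869 in the heterozygotes and 1152 and 1106 in the homozygotes. Rising steps without overlap between genotypes were found in 2 of the 30 family genes (6.67%), beside 4.08% of all genes tested. The other was Ltbr, which met the read rule only through its mutant libraries. For Tnfrsf1a, no library of one genotype reached the range of another. The homozygous log2 fold change was 0.70 ± 0.10 (FDR = 0.00256 in edgeR), a 1.62-fold rise, and it passed with every library left out in turn and under the 7 other settings. The heterozygous value was 0.38 ± 0.10 (FDR = 0.0893 in edgeR), and the homozygous libraries exceeded the heterozygous ones by 0.32 ± 0.10 (FDR = 0.185 in edgeR).

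Tnfrsf25 encodes DR3, a costimulatory death domain receptor of T cells. Its counts were 999 and 981 in the controls, 1338 and 1256 in the heterozygotes and 1278 and 1359 in the homozygotes. Both mutant genotypes lay above the controls and overlapped each other. The homozygous log2 fold change of 0.41 ± 0.10 passed (FDR = 0.0337 in edgeR) and the heterozygous one of 0.39 ± 0.10 did not (FDR = 0.0751 in edgeR), while the difference between the 2 mutant genotypes was 0.02 ± 0.10. The call was lost without Ikzf3 +/+ replicate 1 or 2 or Ikzf3 N159S/N159S replicate 1 or 2 (FDR from 0.103 to 0.201 in edgeR) and with a replicate block (FDR = 0.0708 in edgeR).

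Fas, the death receptor that limits activated lymphocytes, went the other way without passing. Its counts were 609 and 569 in the controls, 443 and 416 in the heterozygotes and 419.8 and 531 in the homozygotes. The log2 fold changes were -0.45 ± 0.13 in the heterozygotes (FDR = 0.128 in edgeR) and -0.31 ± 0.13 in the homozygotes (FDR = 0.245 in edgeR). Tnfrsf10b, the mouse receptor for TRAIL, ranged from 176 to 311 normalised counts with overlapping groups. Tnfrsf21 (DR6) had 5 to 17 reads and a homozygous log2 fold change of 1.05 ± 0.60 on those few reads. With 8 and 5 reads in the controls, it met the read rule only through its mutant libraries.

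**Figure D4:**
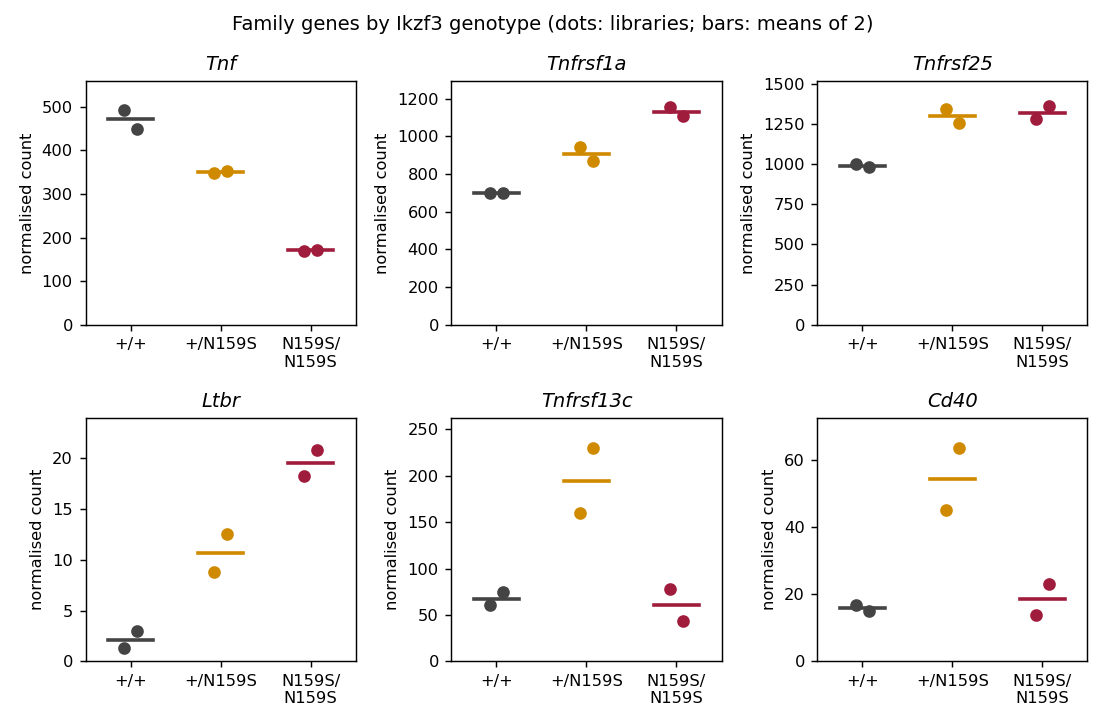
Normalised counts of 6 family genes by genotype; each dot is 1 library and each bar the mean of 2, on axes that start at 0. Tnf is lowest and Tnfrsf1a and Ltbr are highest in the homozygous libraries with the heterozygous ones between, Tnfrsf25 is above the controls in both mutant genotypes, and Tnfrsf13c and Cd40 are high in the heterozygous libraries.

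Among the receptors that bind TRAF adaptors, Ltbr had the largest ratio of homozygotes to controls and the fewest reads. Ltbr encodes the lymphotoxin beta receptor, known mainly from stromal and myeloid cells. Its reads were 1 and 3 in the controls, 10 and 13 in the heterozygotes and 21 and 19 in the homozygotes, so it met the read rule only through its mutant libraries. Scaled to effective library size, the homozygous libraries together had 8.60 times the rate of the controls (40 against 4 reads; exact 95% interval 3.11 to 33.1, for counting error only). Since the mutant libraries alone brought the gene in, the reads, the ratio and its interval are given as a description. The interval takes no account of that selection and is no test of a difference.

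The call of Ltbr counted above was lost in DESeq2 (adjusted p = 0.0561) and in edgeR without Ikzf3 +/+ replicate 1 or 2, Ikzf3 N159S/N159S replicate 1 or 2 or Ikzf3 +/N159S replicate 1. The 15 myeloid markers, 12 of which had enough reads to be tested, summed to 825 and 878 normalised counts in the controls, 1099 and 967 in the heterozygotes and 1027 and 1271 in the homozygotes. In the homozygotes against the controls, 0 of the 12 were called in edgeR, beside 3.10% of all genes higher and 2.10% lower. At an unadjusted p under 0.05 in edgeR, 6 were higher (50% beside 9.59% of all genes) and 0 lower. Their log2 fold changes had a median of 0.75 and were above 0 in 10 and below 0 in 2 (Itgam -0.21 and Fcgr3 -0.28). In the heterozygotes 1 was higher than in the controls (Cybb, 1.91 ± 0.34, FDR = 0.0220 in edgeR) and 0 lower, beside 1.16% and 0.586% of all genes. The part of myeloid cells in the Ltbr counts was not tested. Ltbr and Tnfrsf1a lie on chromosome 6 with Cd27, with 69.56 kb between Cd27 and Ltbr and 35.48 kb between Ltbr and Tnfrsf1a. Cd27 stood at 3017 and 2929.6, at 3467 and 3077 and at 3448 and 3073, a homozygous log2 fold change of 0.13 ± 0.10.

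Among receptors known from B cells, 1 of 3 passed the test, and all 3 were highest in the heterozygous libraries. Tnfrsf13c encodes the BAFF receptor of mature B cells. Its counts were 60.4 and 74.5 in the controls, 159.9 and 229 in the heterozygotes and 77.5 and 43.9 in the homozygotes. The heterozygous libraries stood above all others, and the control and homozygous libraries overlapped. The log2 fold change was 1.52 ± 0.28 in Ikzf3 +/N159S against Ikzf3 +/+ (FDR = 0.0246 in edgeR) and -1.66 ± 0.28 in Ikzf3 N159S/N159S against Ikzf3 +/N159S (FDR = 0.0148 in edgeR). The first call was lost without Ikzf3 +/+ replicate 1 or 2 or Ikzf3 +/N159S replicate 2 (FDR from 0.0871 to 0.121 in edgeR), and the second without Ikzf3 +/N159S replicate 2 or Ikzf3 N159S/N159S replicate 2 (FDR of 0.0649 and 0.0994 in edgeR).

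Cd40, the receptor of B cells and antigen presenting cells for Cd40lg, had the same order of groups. It was counted at 16.7 and 15.1, at 45.1 and 63.6 and at 13.9 and 23.0 in Ikzf3 +/+, Ikzf3 +/N159S and Ikzf3 N159S/N159S. Its heterozygous log2 fold change of 1.77 ± 0.42 did not pass (FDR = 0.0640 in edgeR). Tnfrsf13b, which encodes TACI, was higher in level, at 437 and 350.5, 588 and 544, and 388 and 436, with a heterozygous log2 fold change of 0.53 ± 0.14 (FDR = 0.0832 in edgeR).

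The B cell markers were also highest in the heterozygotes. In edgeR 7 of 15 were higher and 1 lower in Ikzf3 +/N159S than in Ikzf3 +/+ (beside 1.16% and 0.586% of all genes), and 14 were lower in Ikzf3 N159S/N159S than in Ikzf3 +/N159S (beside 0.933%). In the homozygotes against the controls 5 of the 15 were lower (beside 2.10%) with a median log2 fold change of -0.85 over the 15, while the values were -0.14 for Tnfrsf13c, 0.20 for Cd40 and 0.07 for Tnfrsf13b. Cd79a, a chain of the B cell receptor complex, was counted at 264 and 343, at 488 and 714 and at 176 and 112. The part of B cells in these counts was not tested.

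**Figure D5:**
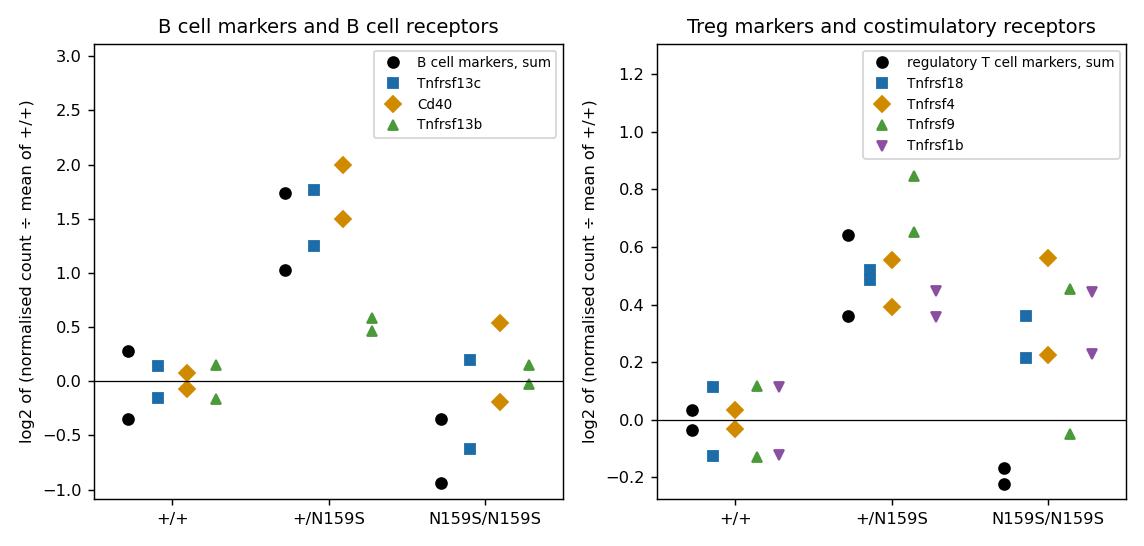
Log2 of the normalised count over the Ikzf3 +/+ mean for each library by genotype: left, the summed B cell markers with Tnfrsf13c, Cd40 and Tnfrsf13b; right, the summed regulatory T cell (Treg) markers with Tnfrsf18, Tnfrsf4, Tnfrsf9 and Tnfrsf1b. All are above the control mean in the heterozygous libraries, and in the homozygous libraries both marker sums are below it while Tnfrsf18, Tnfrsf4 and Tnfrsf1b are above it.

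None of 4 costimulatory receptors of activated and regulatory T cells passed the test of edgeR in either mutant genotype against the controls, and DESeq2 called Tnfrsf18 higher in the heterozygotes (adjusted p = 0.0494). Tnfrsf18 (GITR) was counted at 550.2 and 466 in the controls, 711 and 729 in the heterozygotes and 652 and 590.0 in the homozygotes. The log2 fold changes were 0.51 ± 0.12 in the heterozygotes (FDR = 0.0640 in edgeR) and 0.29 ± 0.12 in the homozygotes (FDR = 0.224 in edgeR). Tnfrsf4 (OX40), its neighbour on chromosome 4 at a distance of 9.55 kb, had 192 and 200.4, 257 and 288, and 229 and 289.5.

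Tnfrsf1b, which encodes the second TNF receptor, stood at 694 and 590.2, 876 and 822, and 753 and 874, with a heterozygous log2 fold change of 0.41 ± 0.12 (FDR = 0.128 in edgeR) and a homozygous one of 0.34 ± 0.12 (FDR = 0.153 in edgeR). Tnfrsf9 (4-1BB) had 86.1 and 72.5, 125 and 143, and 76.7 and 109, and its homozygous libraries overlapped the controls. The ratio of Tnfrsf1a to Tnfrsf1b reads was 1.01 and 1.18 in the controls, 1.08 and 1.06 in the heterozygotes and 1.53 and 1.27 in the homozygotes.

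Regulatory T cells are known for high GITR, OX40, 4-1BB and TNFR2. The 9 markers of these cells summed to 1431 and 1503 in the controls, 2286 and 1884 in the heterozygotes and 1258 and 1305 in the homozygotes, and Foxp3 had 103 and 168, 451 and 249.7, and 163 and 85.5. In the heterozygotes the receptors and the marker sum were both above the controls. In the homozygotes Tnfrsf18, Tnfrsf4 and Tnfrsf1b were above the controls while the marker sum was below them. Of the 8 of these markers with enough reads to be tested, 1 was lower in the homozygotes than in the controls (Il2ra, -0.89 ± 0.23; FDR = 0.0460 in edgeR) and 0 were higher, beside 2.10% and 3.10% of all genes. Their log2 fold changes were below 0 in 6 and above 0 in 2 (Ikzf2 0.20 and Ikzf4 0.38). In the heterozygotes against the controls, 1 of the 8 was higher (Ikzf2, 0.83 ± 0.15, FDR = 0.0232 in edgeR) and 0 lower, beside 1.16% and 0.586% of all genes. The log2 fold changes there were above 0 in 6 and below 0 in 2 (Gpr83 -0.49 and Lrrc32 -0.30). The part of regulatory T cells was not tested.

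With a term for the libraries with more genes detected, a split found in these counts, the heterozygous comparison called 13 of the 30 genes in place of 1. Of these, 9 were higher (Tnfrsf13c, Cd40, Tnfrsf13b, Tnfrsf18, Tnfrsf4, Tnfrsf9, Tnfrsf1b, Tnfrsf25 and Tnfrsf1a) and 4 lower (Tnf, Fas, Cd40lg and Tnfrsf22). In that fit 5.64% of all genes were higher and 5.79% lower, so that the background also rose. The log2 fold changes hardly moved, for example 0.51 ± 0.11 for Tnfrsf18 (FDR = 0.00401 in edgeR) and -0.42 ± 0.12 for Tnf (FDR = 0.0221 in edgeR).

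The other receptors of this class passed in no comparison. Tnfrsf14 (HVEM, the receptor of LIGHT and BTLA) lay between 458 and 610.3 normalised counts, Tnfrsf12a (the TWEAK receptor) between 109.9 and 189, and Tnfrsf19 (TROY) had 7 to 24 reads. The decoy receptors Tnfrsf22 and Tnfrsf23 lie together on chromosome 7 with their neighbour Tnfrsf26, which is grouped with them here. Tnfrsf26 ranged from 889 to 1097 and Tnfrsf22 from 421 to 549.9, with homozygous log2 fold changes of -0.11 and -0.11. Tnfrsf23 was low (24.4 to 86.6), its highest value came from the second homozygous library, and without that library its homozygous log2 fold change was 0.09 in place of 1.09. Of the 50-base words of Tnfrsf23 transcripts, 28.9% are also in Tnfrsf22, and Tnfrsf23 and Tnfrsf26 each overlap exons of the opposite gene E230032D23Rik, so that reads of these genes may be shared or lost.

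The 13 family genes below the read rule were Cd70, Ngfr, Tnfrsf8, Tnfrsf11a, Tnfrsf11b, Tnfrsf17, Tnfsf4, Tnfsf12, Tnfsf13, Tnfsf13b, Tnfsf15, Tnfsf18 and Tnfsfm13. The closest to it was Tnfsf13b, the BAFF gene, with 5 and 3, 8 and 10, and 1 and 0 reads, followed by Tnfsf15, with 2 and 0, 1 and 10, and 7 and 3. Just inside the rule were Tnfrsf19, with 9 reads in the second heterozygous library and 7 and 8 in the homozygotes, and Tnfrsf21. Values of 0 or 1 read for Tnfsf12 and Tnfsf13 (TWEAK and APRIL) are no measure of these genes, because 728 and 983 of their exon bases are shared on the same strand with the joined gene Tnfsfm13, and reads there cannot be given to one gene.

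Ligands and their receptors can be set side by side. In the TNF pair the ligand fell to 36.2% in the homozygotes while Tnfrsf1a rose 1.62-fold and Tnfrsf1b was counted at 1.27 times the control level without passing. In the lymphotoxin pair Ltb and Lta did not pass, and Ltbr had 1 and 3 reads in the controls and 21 and 19 in the homozygotes. In the CD40 pair the ligand was the abundant partner in these sorted cells, with 1339 to 2317 normalised counts against 13.9 to 63.6 for the receptor. For CD27, OX40 and GITR the receptor had 192 or more normalised counts in every library and the ligand at most 4 reads.

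Signalling genes behind the receptors were read from a list of 55 adaptors, kinases, NF-kB proteins, death signalling genes and sheddases, all of which were tested. In homozygous cells 2 of the 55 rose in edgeR, Bcl3 and Nfkb2 (3.64% beside 3.10% of all genes). None fell by edgeR or DESeq2, beside 2.10% of all genes in edgeR. At an unadjusted p under 0.05, 9 were higher (16.4% beside 9.59% of all genes) and 3 lower (5.45% beside 8.8%). The median log2 fold change of the list was 0.03 beside 0.00018 for all genes tested. Both genes belong to the 10 NF-kB subunits and inhibitors, where 5 (50%) had an unadjusted p under 0.05, all higher, beside 9.59% of all genes.

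Bcl3, a nuclear partner of NF-kB p50 and p52, was counted at 301 and 365 in the controls, 489 and 545 in the heterozygotes and 537 and 746 in the homozygotes (homozygous log2 fold change 0.94 ± 0.17; FDR = 0.00803 in edgeR). Nfkb2, which encodes the p100 precursor of p52 in the noncanonical pathway, had 1247 and 1439, 1644 and 1719.8, and 1975 and 1812 (0.49 ± 0.11; FDR = 0.0198 in edgeR). Relb, the partner of p52, and Nfkbie, an inhibitor, had homozygous log2 fold changes of 0.46 ± 0.13 (FDR = 0.0590 in edgeR) and 0.50 ± 0.13 (FDR = 0.0521 in edgeR). Each had an FDR under 0.05 in 4 of the 7 other settings. DESeq2 called Relb and Nfkbie higher along with Bcl3 and Nfkb2, and over all genes it called 389 higher and 282 lower. Without Ikzf3 +/+ replicate 1 neither Bcl3 nor Nfkb2 passed (FDR of 0.0686 and 0.183 in edgeR), and Nfkb2 also failed without Ikzf3 N159S/N159S replicate 1 (FDR = 0.144 in edgeR).

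In heterozygous cells 0 of the 55 passed in edgeR, beside 1.16% of all genes higher and 0.586% lower. At an unadjusted p under 0.05, 5 were higher (9.09% beside 9.39%) and 1 lower (1.82% beside 6.92%), and DESeq2 called Bcl3 higher and Tnfaip3 lower. Between the mutant genotypes 1 of the 55 was higher in the homozygotes in edgeR (1.82% beside 0.553% of all genes) and 1 lower (1.82% beside 0.933%). The higher one was Tnfaip3, which encodes the NF-kB inhibitor A20, and the lower one Traf1, an adaptor of several costimulatory receptors. DESeq2 called these and also Traf4, which was higher. Tnfaip3 had 21407 and 24635 in the controls, 14898 and 18408 in the heterozygotes and 24070.1 and 27879 in the homozygotes (log2 difference 0.64 ± 0.13; FDR = 0.0366 in edgeR). Traf1 had 1209.8 and 1396, 1458 and 1479, and 1077 and 840.0 (-0.61 ± 0.13; FDR = 0.0394 in edgeR). Both calls were lost without Ikzf3 +/N159S replicate 1 or Ikzf3 N159S/N159S replicate 2, and that of Traf1 also without Ikzf3 +/N159S replicate 2 and with a replicate block (FDR from 0.0738 to 0.309 in edgeR over these settings).

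In the other groups of the list no gene passed in the homozygotes against the controls. The largest differences were -0.44 for Traf1 among the adaptors, -0.45 for Tab1 among the kinases, 1.25 for Mlkl among the death signalling genes and -0.76 for Rhbdf1 among the sheddases, the last 2 at fewer than 20 normalised counts in every library. Adam17, the protease that sheds TNF and its receptors, had a homozygous log2 fold change of -0.29 ± 0.11.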

How the data were processed

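RNA-seq was made from FACS-purified splenic TCRb+CD4+CD44-CD127+ T cells of 3 Ikzf3 genotypes, with 2 libraries each. The authors trimmed reads with Trimmomatic 0.38.1, mapped them to mm10 with HISAT2 2.2.1 and deposited HTSeq 2.0.2 read counts per refGene gene, not normalised; strand and overlap settings were not given in the sources used here. Rows that name no gene held 42.3% to 49.3% of the entries and were left out of library sizes and tests.

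Counts were tested with edgeR 4.0.16 in R 4.3.3 (TMM, filterByExpr with a minimum count of 10, glmQLFit and glmQLFTest, 1 coefficient per genotype, all 6 libraries in 1 fit), with Benjamini-Hochberg adjustment over all 12117 genes tested and a threshold of 0.05. The SE is the log2 fold change divided by the square root of F. The study's methods count mice as replicates, but the labels do not tie each library to an animal, so p-values measure the spread between these libraries. Levels per length used GENCODE M21 basic exons on GRCm38. Depth was 11696461 to 17317260 reads on genes, and intervals cover counting error only. The steps were tested on simulated data.

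Family genes with at least 10 reads in at least 2 libraries were described, called genes in full and others by range with the highest of each role; in the signalling list the called genes and the largest change of each group were named. Relb, Nfkbie, Traf4 and Adam17 were named after their values were seen. Members and lists were chosen with earlier results of these data known. Alternatives were DESeq2 1.42.0 (tool and size factors), 2 other filters, a replicate block, a term for genes detected, fits of 2 genotypes and each library left out.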

Additional observations from a re-analysis of the deposited data

How the results depend on the processing

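Tnf and Tnfrsf1a were called in Ikzf3 N159S/N159S against Ikzf3 +/+ under all 13 alternatives. The count of family genes called there was 4 and went from 3 to 5 with other tools, filters and terms and from 2 to 4 with 1 library left out. In Ikzf3 +/N159S against Ikzf3 +/+ the count of 1 became 2 in DESeq2, 7 with no filter, 2 with at least 10 reads in every library, 13 with a term for the libraries with more genes detected, and 0 to 1 with 1 library left out. In the homozygotes against the heterozygotes the count of 2 became 5 with that term and 1 to 2 with 1 library left out. For the signalling list in the homozygotes, 2 became 4 in DESeq2, 6 with no filter, 10 with that term, 4 with only the 2 genotypes compared and 0 to 5 with 1 library left out. Over all genes, the 631 calls in the homozygotes against Ikzf3 +/+ went from 495 to 1760 with other tools, filters and terms. They also fell where 1 Ikzf3 +/+ or Ikzf3 N159S/N159S library was left out, which leaves that genotype with 1 library. The cause of these shifts was not tested. The log2 fold change of Tnfrsf13c in the homozygotes against Ikzf3 +/+, -0.14 and not called, ranged from -0.63 to 0.20 with 1 library left out, and was above 0 without Ikzf3 +/+ replicate 2 (0.03) or Ikzf3 N159S/N159S replicate 2 (0.20). Of all values for the 39 single-gene results, 434 kept direction and side of the threshold, 41 passed only under the alternative, 25 passed only in the main analysis and 2 changed sign.

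With the replicate number as a block, 3, 1 and 2 family genes and 2 genes of the list were called in the same order of comparisons, and over all genes 495, 149 and 135 in place of 631, 212 and 180. The deviations of same-numbered libraries had r = -0.17 and -0.22 across genes for Ikzf3 +/+ with Ikzf3 +/N159S and with Ikzf3 N159S/N159S, and 0.24 for the 2 mutant genotypes, so not every pair was over 0.1 and the numbers were not used as pairs. With no filter 1047, 710 and 553 genes were called over all genes, and with the term for genes detected 1760, 1385 and 834. At this depth, genes with fewer than about 20 reads (Ltbr, Tnfrsf21, Tnfrsf19) had standard errors of 0.53 to 0.76 and differences under 1 on the log2 scale were not detectable in them.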
